A study of Mus musculus with 54 samples.

Results

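The 32 genes described here act in the G2 and M phases of the cell cycle, when a cell checks its copied chromosomes, builds a spindle and divides. All 32 were rows of the deposited table of 16772 genes, and all lay above the lowest 25% of genes by mean level. Expression was measured by bulk RNA sequencing of mouse prostate tumour tissue, in 54 libraries from 48 animals that fell into 11 groups. The members were described gene by gene and as a mitosis score. The score of an animal is the mean over the 32 genes of its log2 value, each gene centred on all 48 animals, so that 1 unit is a doubling of the average gene.

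The mice carried the DKO or TKO tumour models, and the DKO_EE and DKO_EP mice are described by the submitters as DKO mice with Ezh2 deletions. The labels used here spell out neither the genes deleted in DKO and TKO, nor the promoter that drives a deletion, nor what EE and EP stand for. The intact 12-week groups were 4 DKO, 4 DKO_EE and 4 DKO_EP animals. The intact endstage groups were 3 DKO animals of 35 to 46 weeks, 8 DKO_EE animals of 28 to 42 weeks and 3 DKO_EP animals of 39 to 52 weeks. The castrated endstage groups, castrated at an age of 12 weeks, were 4 DKO animals of 39 to 99 weeks, 5 DKO_EE animals of 35 to 59 weeks and 5 DKO_EP animals of 34 to 37 weeks. The 8 castrated TKO mice received vehicle (4 animals, 15 to 19 weeks) or CPI1688, labelled as an Ezh2 inhibitor (4 animals, 18 to 19 weeks). Animal numbers below only name the animals, since the labels give no replicate numbers. Nothing beyond the sample identifiers says how the animals of a group relate, so p-values measure the spread between these animals.

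Entry into mitosis is driven by the kinase Cdk1 bound to cyclins A and B. Kinases of the Aurora and Polo families then build the spindle, the kinetochore ties each chromosome to it, and a checkpoint holds back anaphase until every chromosome is attached. Ubiquitin ligases finally destroy the cyclins, and many of the genes are transcribed in late G2 through promoter elements bound by the DREAM complex, MYBL2 and FOXM1. In a prostate tumour these transcripts are widely used as a measure of proliferation. In bulk tissue, fewer cells of a type and less RNA per cell cannot be told apart.

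A library held 3687048 to 9741808 reads over the 16772 genes. The members were well covered, from 23 reads of Ttk in its shallowest library to 36047 reads of Mki67 in its deepest, and none was at 0 in any library. Ezh2, the gene named in the deletions, averaged 8.28 ± 0.49 on the log2 scale in the 8 intact endstage DKO_EE animals (SD), 9.61 ± 0.23 in the 3 DKO animals and 9.39 ± 0.11 in the 3 DKO_EP animals. Summed markers of neuroendocrine cells made up 0.00234% to 0.0442% of normalized counts in the 12-week animals of the DKO models and 0.262% to 0.484% at intact endstage. Of 12 luminal prostate markers, Pbsn and Msmb were at 0 in every intact endstage library, and Spink1 was in those of DKO_EP. The endstage tissue thus did not carry all markers of the prostate it is labelled as. The luminal markers still summed to 0.126% to 0.441% of normalized counts at intact endstage, against 0.334% to 0.620% at 12 weeks. In the DKO_EP intact endstage group, 5 of 5 libraries, and in DKO_EE 5 of 12, gave over 10% of their reads to the gene Lars2. The comparisons that held such libraries were run again with only libraries under 10% Lars2. Of the members, 6 then changed sign in intact endstage DKO_EE minus DKO and 5 in castrated minus intact DKO_EE, none of them called in either fit. Too few libraries remained for comparisons with intact DKO_EP animals or between tumour pieces, so the part of Lars2 in those was not tested.

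Promoter windows were available for 27 of the 32 genes, and 8 are printed here, with elements known from late cell cycle promoters marked where present. They belong to cyclins, their kinase, 2 genes of the ubiquitin ligase arm, a motor, a topoisomerase and an inhibitor family member. The last, Birc5, held neither of the marked elements. The letters are from RefSeq on GRCm38.p6, 5′ to 3′ on the gene's own strand, from 140 bases before the start site used in the RefSeq table to 30 bases after it. Capitals mark the cell cycle genes homology region, CHR, searched as TTTGAA on either strand (TTCAAA on the other), and the CCAAT box, searched as CCAAT on either strand (ATTGG on the other).
Cdk1 (chr10:69352883-69353052, reverse strand): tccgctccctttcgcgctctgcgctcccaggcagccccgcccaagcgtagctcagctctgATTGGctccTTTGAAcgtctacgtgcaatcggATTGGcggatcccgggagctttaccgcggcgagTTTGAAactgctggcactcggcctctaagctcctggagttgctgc
Ccnb1 (chr13:100786457-100786626, reverse strand): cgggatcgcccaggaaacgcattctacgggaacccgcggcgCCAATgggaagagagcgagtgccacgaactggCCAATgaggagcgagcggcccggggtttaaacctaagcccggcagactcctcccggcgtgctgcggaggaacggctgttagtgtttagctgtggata
Ccnb2 (chr9:70421525-70421694, reverse strand): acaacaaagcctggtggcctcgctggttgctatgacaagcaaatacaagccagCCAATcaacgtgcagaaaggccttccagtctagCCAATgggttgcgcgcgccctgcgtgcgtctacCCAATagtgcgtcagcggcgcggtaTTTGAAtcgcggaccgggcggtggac
Cdc20 (chr4:118437314-118437483, reverse strand): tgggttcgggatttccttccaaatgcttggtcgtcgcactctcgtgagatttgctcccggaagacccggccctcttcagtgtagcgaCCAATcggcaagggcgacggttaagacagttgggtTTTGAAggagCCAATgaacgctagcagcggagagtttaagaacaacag
Ube2c (chr2:164769789-164769958, forward strand): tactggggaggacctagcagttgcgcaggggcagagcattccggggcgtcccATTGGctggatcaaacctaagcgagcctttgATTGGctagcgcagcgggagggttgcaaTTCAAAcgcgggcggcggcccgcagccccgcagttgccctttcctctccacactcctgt
Kif11 (chr19:37376242-37376411, forward strand): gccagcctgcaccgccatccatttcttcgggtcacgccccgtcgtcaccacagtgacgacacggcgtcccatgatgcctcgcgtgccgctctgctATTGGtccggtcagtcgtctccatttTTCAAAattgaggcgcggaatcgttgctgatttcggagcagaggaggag
Top2a (chr11:99024160-99024329, reverse strand): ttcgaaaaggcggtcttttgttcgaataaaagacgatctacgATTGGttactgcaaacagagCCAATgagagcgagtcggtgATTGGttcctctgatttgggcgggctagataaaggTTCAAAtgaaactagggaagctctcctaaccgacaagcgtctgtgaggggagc
Birc5 (chr11:117849097-117849266, forward strand): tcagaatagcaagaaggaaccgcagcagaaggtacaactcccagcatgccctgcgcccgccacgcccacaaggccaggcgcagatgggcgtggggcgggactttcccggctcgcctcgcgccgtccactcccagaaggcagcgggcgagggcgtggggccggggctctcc

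In the full windows of 250 bases before to 50 bases after the start, the CHR letters stood in 21 of 27 member genes (77.8%), against 20.2% of all 27025 genes with a window. The CCAAT box stood in 22 of 27 (81.5%), against 41.1% of all these genes, and both elements stood in 19 of 27 (70.4%), against 7.97%. In 19 of the 21 genes with the CHR letters, a match began between 40 bases before and 45 bases after the start. The share of all genes with a match in that interval is not given here. The start used was the first base of the RefSeq gene in 15 of 28 member windows, so positions hold for that start only. Cdk1 held the CHR letters 71 bases and 15 bases before its start. The CHR letters were not in the windows of Birc5, Bub1, Ccnb1, Cenpe, Nuf2 and Nusap1. The CCAAT box was not in those of Birc5, Kif2c, Ndc80, Nuf2 and Nusap1. The Ccnb1 window held the related letters TTTAAA, which stood in 9 of 27 member genes (33.3%) and 14.9% of all these genes. The member windows were also richer in G and C, with a median of 58.8% against 52.7% over all windows. The genes with the CHR letters had a median change from 12 weeks to intact endstage in DKO of 3.01 on the log2 scale and the 6 without them 2.94. A match describes letters and shows no binding.

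The genes differed widely in level. Per kilobase of exon, Mki67, which coats mitotic chromosomes and is the common proliferation marker, averaged 1623 normalized counts in intact endstage DKO tumours. Top2a, which untangles DNA before segregation, followed at 1000.5 normalized counts per kilobase, and the A-type cyclin Ccna2 at 570 normalized counts per kilobase. The lowest was the kinetochore subunit Nuf2 at 57.2 normalized counts per kilobase. The same 3 genes led at 12 weeks, at 191, 102 and 53.1 normalized counts per kilobase in DKO for Mki67, Top2a and Ccna2. Within groups the pooled SD of a member ran from 0.39 for Kif23 to 0.70 for Cenpf on the log2 scale, around the median of 0.55 over all genes.

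**Figure D1:**
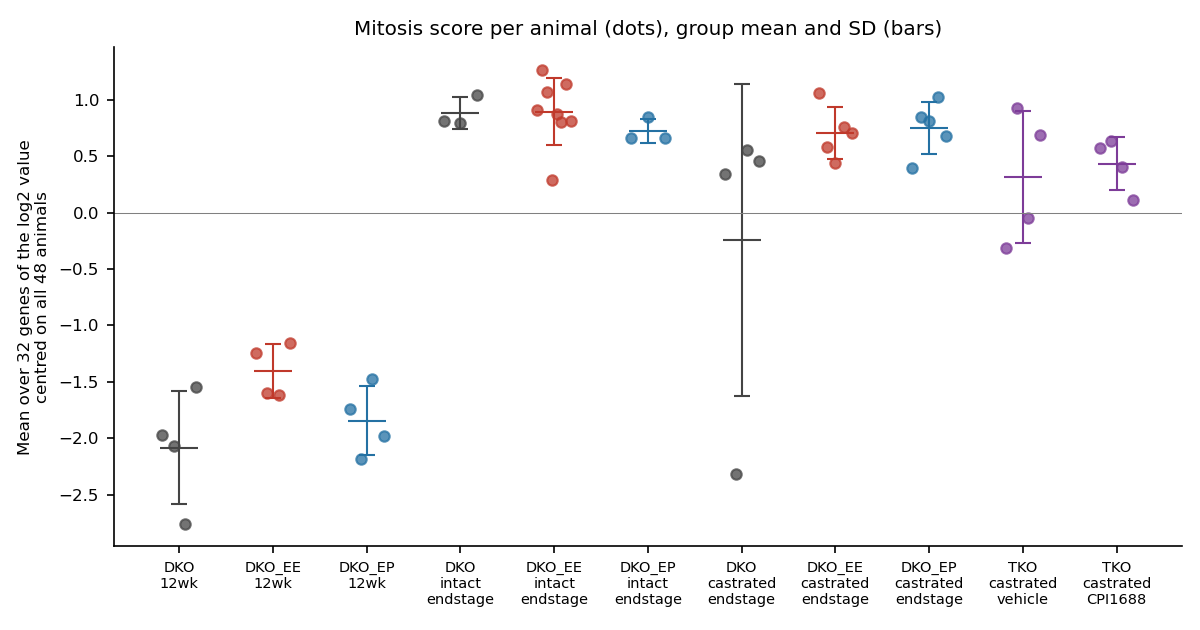
Mitosis score (vertical axis, mean log2 value over the 32 genes centred on all 48 animals) of each animal in the 11 groups; dots are animals, and bars are group means and SD. All 12 animals of 12 weeks lie at or below -1.16, all 14 intact endstage animals at or above 0.29, and castrated DKO animal 2 lies at -2.31 among the 12-week animals.

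From 12 weeks to intact endstage every member rose in each of the 3 DKO models. The score moved from -2.09 ± 0.50 (SD, n = 4) to 0.88 ± 0.14 (n = 3) in DKO, from -1.40 ± 0.24 (n = 4) to 0.90 ± 0.30 (n = 8) in DKO_EE, and from -1.84 ± 0.31 (n = 4) to 0.73 ± 0.11 (n = 3) in DKO_EP. In DKO, 32 of 32 members were called higher at an adjusted p under 0.05 in limma, against 18% of all genes, with log2 changes of 2.18 to 3.77 and a median of 2.95, which is 7.71-fold. In DKO_EE, 32 of 32 were called, against 23.6% of all genes, with changes of 1.71 to 3.07. In DKO_EP, 32 of 32 were called, against 21.3% of all genes, with changes of 1.93 to 3.39. The largest adjusted p of any member in the 3 limma comparisons was 6.17e-05. The endstage animals lay above every 12-week animal of their genotype for all 32 genes in all 3 genotypes, as did 24.7%, 13.7% and 24.0% of all genes in DKO, DKO_EE and DKO_EP. The 3 comparisons use separate animals.

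The kinase Cdk1 and the cyclins gave the largest median change of the functional groups in DKO, 3.28 over 5 genes. The 2 chromosome structure genes, Mki67 and Top2a, followed closely at 3.24. The log2 values of the B-type cyclin Ccnb1 were 7.04, 6.92, 6.13 and 7.53 in the 12-week DKO animals and 10.75, 10.52 and 10.76 at intact endstage. All 3 endstage values lay above every 12-week value. This was the largest rise of any member in DKO, a log2 change of 3.77 ± 0.47 (SE, limma, adjusted p = 1.63e-07), or 13.7-fold. Cdk1 read 7.58, 7.49, 6.71 and 7.81 at 12 weeks and 10.68, 10.53 and 10.82 at endstage, with no overlap and a log2 change of 3.28 ± 0.37 (SE). Ccna2, which binds both S phase and mitotic kinases, changed by 3.51, the second B-type cyclin Ccnb2 by 3.18, and Ccnf, the F-box subunit of a ubiquitin ligase, by 3.01.

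The mitotic kinases rose somewhat less, with a median log2 change of 2.76 over 6 genes in DKO. Plk1, which drives mitotic entry and centrosome maturation, read 6.65, 6.19, 5.75 and 7.04 in 12-week DKO animals and 9.02, 8.98 and 8.83 at endstage. The groups did not overlap, and the change was 2.54 ± 0.35 (SE). Aurka, which builds spindle poles, changed by 3.08, and Aurkb, the kinase of the chromosomal passenger complex, by 2.49. The checkpoint kinase Ttk changed by 2.89 and its partner Bub1 by 2.84. Bub1b, part of the complex that holds back anaphase, read 7.38, 7.58, 6.70 and 7.66 at 12 weeks and 9.91, 9.96 and 10.13 at endstage, a change of 2.67 ± 0.35 (SE) with no overlap.

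The passenger complex subunits stood at the lower end. Birc5, or survivin, which brings Aurkb to the centromere, read 6.81, 6.61, 5.99 and 7.13 at 12 weeks and 8.63, 8.71 and 9.09 at endstage in DKO. The groups again did not overlap, and its change of 2.18 ± 0.33 (SE), 4.52-fold, was the smallest among the members. Cdca8, or borealin, changed by 2.74. Among kinetochore genes the median change was 3.10 over 5 genes, with Cenpf at 3.64, the microtubule-binding subunit Ndc80 at 3.35, the centromeric histone Cenpa at 3.10, the motor Cenpe at 3.05 and Nuf2 at 2.68. Ndc80 read 5.96, 5.90, 5.03 and 6.43 at 12 weeks and 8.90, 9.10 and 9.52 at endstage, again without overlap.

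The kinesin motors had a median change of 2.69 over 4 genes in DKO. Kif11, the motor that pushes spindle poles apart, read 7.43 to 8.46 in the 4 animals at 12 weeks and 11.15, 10.98 and 11.60 at endstage. All 3 endstage animals were above the 12-week animals, and the change was 3.22 ± 0.45 (SE). Kif2c, which removes wrong attachments, changed by 2.90, and the cytokinesis motors Kif20a and Kif23 by 2.47 and 2.18. Of the spindle and midzone proteins, Nusap1, a microtubule bundler, changed by 3.43, Hmmr by 3.02, Dlgap5 by 2.94, the midzone crosslinker Prc1 by 2.86 and Tpx2, the activator of Aurka, by 2.77. In the ubiquitin ligase arm the changes lay close together, with Cdca3 at 2.95, the conjugating enzyme Ube2c at 2.93 and the ligase activator Cdc20 at 2.92. Cdc20 read 6.61, 6.21, 5.94 and 6.82 at 12 weeks and 9.39, 9.21 and 9.33 at endstage. Top2a changed by 3.35 and Mki67 by 3.13, and both were without overlap, with Mki67 at 10.15 to 11.41 and then 13.76 to 14.31.

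Several of these genes overlap another gene on the opposite strand, and whether counting used strand is not given in the sources used here. Prc1 overlaps Rccd1 over 21810 bases, Kif20a overlaps Cdc23 over 2327 bases, Cdca8 overlaps a gene over 2264 bases, Ube2c overlaps the muscle gene Tnnc2 over 1662 bases, Ccna2 overlaps Exosc9 over 863 bases and Nusap1 overlaps Oip5 over 172 bases. Cdc20 overlaps Elovl1 over 53 bases. Plk1 and Mki67 overlap predicted gene models over 1016 and 674 bases, Cenpf overlaps a processed pseudogene over 141 bases, and Top2a overlaps a small nucleolar RNA gene over 115 bases. Kif11 overlaps a processed pseudogene on each strand, over 946 bases on its own and 406 bases on the other. The values of these genes are uncertain to that extent.

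**Figure D2:**
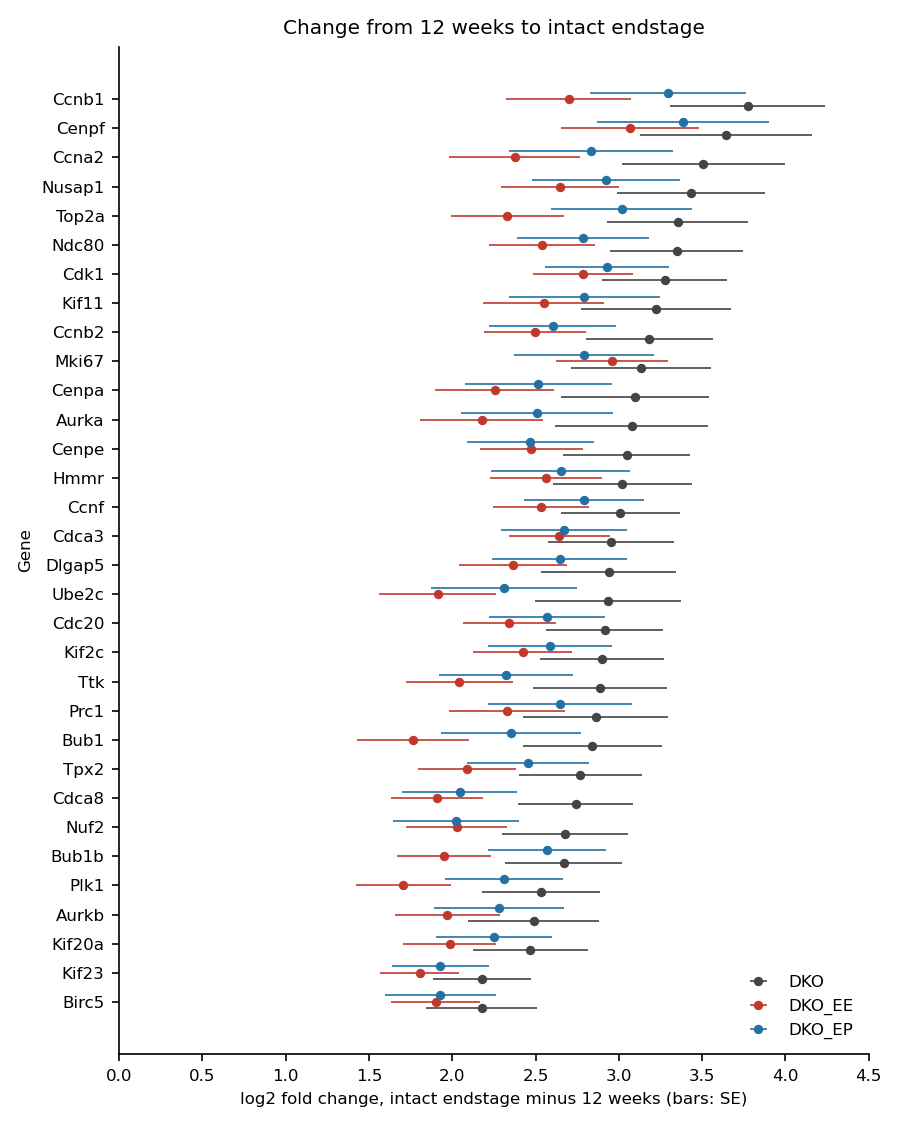
log2 fold change from 12 weeks to intact endstage (horizontal axis) of each member gene (vertical axis) in DKO, DKO_EE and DKO_EP; dots are limma estimates and bars their SE. All values lie between 1.71 and 3.77, and the DKO dot lies furthest right for every gene.

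The rise was smaller in DKO_EE and DKO_EP than in DKO for all 32 genes, but no difference passed the test. The interaction, the change in DKO_EE minus the change in DKO, ran from -1.13 for Ccna2 to -0.17 for Mki67, with 0 of 32 called in limma (adjusted p of 0.482 or above), 0 at an unadjusted p under 0.05 and 0 by limma-voom, against 0.125% of all genes called. For DKO_EP it ran from -0.70 to -0.10, again with 0 called, 0 at an unadjusted p under 0.05 and 0 by limma-voom, against 0.00596% of all genes. Both interactions share the DKO animals. Without the 12-week animals with over 1% of reads on Ttn, a skeletal muscle gene, the mean member differences were -0.996 in DKO_EE and -0.965 in DKO_EP, against -0.671 and -0.402 with all animals. Of the 12-week DKO animals this kept animals 2 and 3, and animal 3 had the lowest score of its group, at -2.76. Leaving out DKO animal 3 alone, 1 member changed sign in the DKO_EE difference and 7 in the DKO_EP difference.

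The neighbouring cell cycle lists, chosen with earlier results of these data known, moved alongside. Over all genes, 18% were called higher and 18.7% lower in the DKO comparison, with a median log2 change of -0.04. Of 68 other mitosis genes, 63 were called higher and 1 lower, with a median log2 change of 2.55. Examples were the spindle protein Aspm at 3.31, the kinesin Kif22 at 3.29 and the Cdk1-binding Cks2 at 2.88. Of 37 S phase and replication genes, 35 were higher with a smaller median of 1.70, among them cyclin E, Ccne1, at 2.80 and the replication licensing factor Cdc6 at 2.16. Of 19 cohesin and condensin genes 14 were higher, with the condensin subunit Ncapg at 3.09. Of 16 genes of the anaphase-promoting complex and its regulators 9 were higher and 1 lower, with the inhibitor Fbxo5 at 2.98 and the subunit Anapc2 at -0.96.

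Of 19 genes of cell cycle transcription control, 11 were called higher and 1 lower in DKO, against 18% and 18.7% of all genes. Mybl2, which joins the MuvB complex at CHR promoters, rose by 2.74 ± 0.45 (SE) and Foxm1, its G2 partner, by 1.87 ± 0.34. E2f1, which drives S phase genes, rose by 2.26 ± 0.39 and Rb1, the retinoblastoma repressor, by 0.78 ± 0.29 (limma, adjusted p = 0.0303). Rbl1 was at 0.39 ± 0.20 (limma, adjusted p = 0.121). Among 13 G1 cyclins, partners and inhibitors, 5 were higher and 2 lower, with the Cdk inhibitors Cdkn2d at 3.09 and Cdkn2c at 2.54 and cyclin D3, Ccnd3, at -1.52. Cdkn1a and Cdkn2a did not pass the test, at 0.71 ± 0.55 and -1.01 ± 1.18 (SE).

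Markers of other cell types moved over the same interval in DKO. Of 18 neuroendocrine markers 14 were higher, of 12 luminal markers 7 were lower, and of 10 skeletal muscle markers 10 were lower, against 18% of all genes called higher and 18.7% lower. Skeletal muscle markers summed to 0.156% to 3.70% of normalized counts in 12-week DKO animals and 0.00667% to 0.0287% at endstage. In DKO_EE they summed to 0.00285% to 0.0228% at 12 weeks. With the 12-week animals under 1% Ttn only, 32 of 32 members were called higher in each genotype. The part of the neuroendocrine and luminal markers in the rise of the mitosis genes was not tested.

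At 12 weeks the DKO_EE tumours had higher values than the DKO tumours for all 32 genes, but 0 were called in limma (adjusted p = 0.975 for every member), against 0% of all genes, and 0 by limma-voom. The differences ran from 0.45 to 0.95 on the log2 scale with a median of 0.69, and 24 of 32 had an unadjusted p under 0.05, as did 796 of 16626 genes. The largest was Cdca8 at 0.95 ± 0.29 (SE), followed by Plk1 at 0.91 ± 0.31. Plk1 read 7.71, 7.10, 6.84 and 7.62 in the 4 DKO_EE animals, against 6.65, 6.19, 5.75 and 7.04 in DKO, so the groups overlapped, with DKO animal 4 above DKO_EE animal 3. For 7 members every DKO_EE animal was above every DKO animal, as for 2.10% of all genes. DKO animal 4 had the highest value of its group in 32 of 32 genes and animal 3 the lowest in 31. Skeletal muscle markers made up 2.04% of normalized counts in DKO animal 4 and 0.257% in animal 3, and 0.00285% to 0.0228% in the DKO_EE animals. With only the animals under 1% Ttn, which kept 2 DKO and 4 DKO_EE animals, the mean member difference was 1.01 in place of 0.681, with 0 called. The 2 DKO animals kept were animals 2 and 3, so animal 4 was left out and animal 3 kept.

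DKO_EP differed from DKO by 0.02 to 0.50, 0 of 32 called in limma against 0% of all genes, 0 at an unadjusted p under 0.05 and 0 by limma-voom. Skeletal muscle markers made up 3.28% and 3.65% of normalized counts in DKO_EP animals 2 and 4. With only the animals under 1% Ttn, 2 in each group, the mean member difference was 0.805 in place of 0.243. The 2 DKO animals kept were animals 2 and 3, and animal 3 had the lowest score of its group, at -2.76. Leaving out DKO animal 3 alone, 15 of the 32 members changed sign, so the size of this difference depended on which DKO animals were kept. DKO_EE exceeded DKO_EP by 0.13 to 0.63 in the 32 genes, with 0 called against 0% of all genes, 4 at an unadjusted p under 0.05 and 0 by limma-voom, and the mean was 0.202 in place of 0.438 with only the animals under 1% Ttn.

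**Figure D3:**
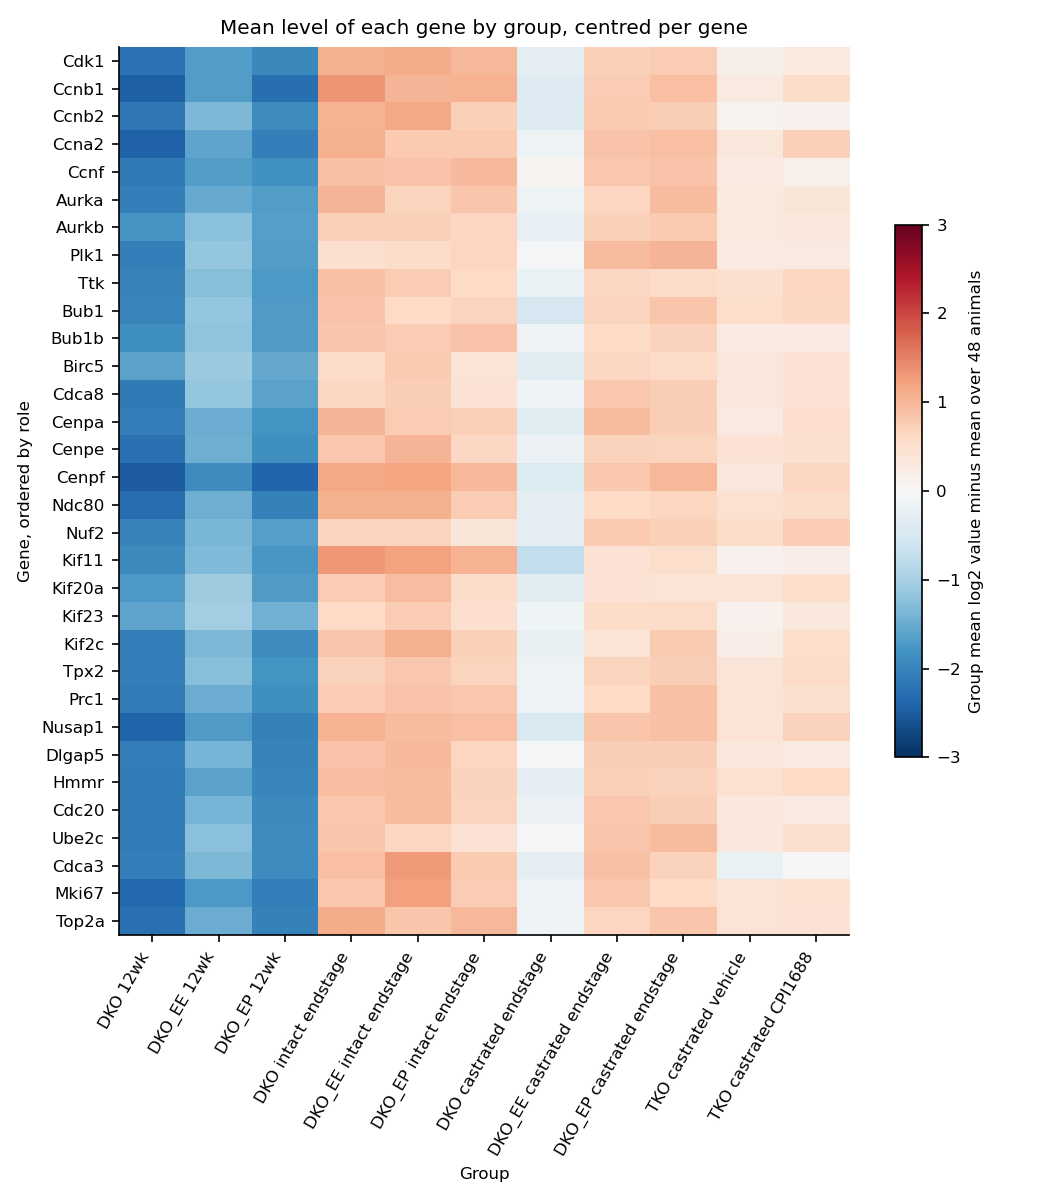
Mean level of each member gene (rows, ordered by role) in the 11 groups (columns), as the group mean log2 value minus the mean over 48 animals. The 12-week columns are below the mean for all genes and the intact endstage columns above it, while the castrated DKO column is below the mean for all genes except Ccnf.

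At intact endstage the genotypes were close. DKO_EE minus DKO ran from -0.36 to 0.43 over the 32 genes, DKO_EP minus DKO from -0.40 to 0.17 and DKO_EE minus DKO_EP from -0.17 to 0.49. In limma 0 of 32 were called in each, against 1.66%, 0% and 1.63% of all genes. At an unadjusted p under 0.05 the counts were 0, 0 and 3, and limma-voom called 0 in each. A p that misses the threshold does not show that the genotypes are alike. DKO_EE animal 4, the youngest at 28 weeks, was the lowest of its group in 26 of 32 genes and had a score of 0.29, against 0.80 to 1.27 in the other 7. Its Ccnb1 was at 9.69, against 10.30 to 10.80 in the others, and its Ccna2 at 9.48, against 10.75 to 11.34. Its Mki67 was not low, at 14.70 in a group of 14.10 to 14.88, so its low values were broad but not shared by every member. Its library gave 35.3% of its reads to Lars2, more than any other DKO_EE animal. Without it, an alternative chosen after seeing the data, Kif20a was called higher in DKO_EE than in DKO_EP (limma, adjusted p = 0.0244). The share of all genes called without this animal is not given here, so the call cannot be read as particular to the members.

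After castration the score was 0.71 ± 0.23 (SD, n = 5) in DKO_EE, 0.75 ± 0.23 (n = 5) in DKO_EP and -0.24 ± 1.39 (n = 4) in DKO. The wide spread in DKO came from animal 2, aged 99 weeks, at -2.31, while animals 1, 3 and 4 stood at 0.35, 0.55 and 0.45. Animal 2 was the lowest of its group in 32 of 32 genes, by 1.42 to 3.47 on the log2 scale below the next animal, with a median gap of 2.51, or 5.69-fold. In 28 genes it lay within the range of the 12-week DKO animals and in 4 below it. Kif11 read 6.58 in animal 2, below the lowest 12-week value of 7.43, and 9.86, 10.27 and 10.08 in the others. Ccnb1 read 6.29 in animal 2 and 9.76, 9.98 and 9.85 in the others, and Mki67 read 10.80 against 13.59, 13.86 and 13.86. Animal 3 was aged 84 weeks and did not share these low values. Neuroendocrine markers summed to 0.00452% of normalized counts in animal 2 and 0.364% to 0.415% in the others, and basal epithelium markers to 0.813% and 0.108% to 0.119%. The library labelled castrated endstage DKO animal 2 thus stood apart in these markers too, and their part in its low mitosis genes was not tested.

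**Figure D4:**
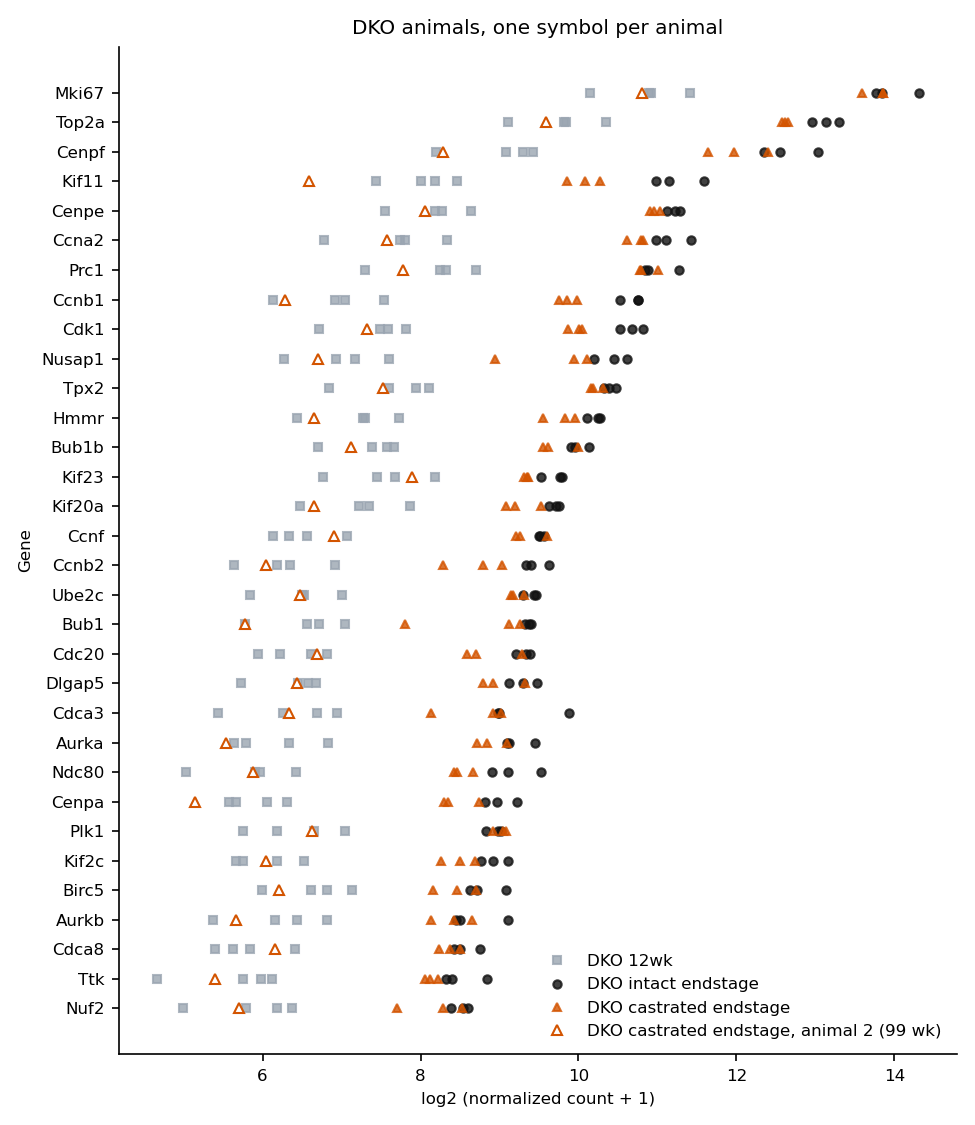
log2 of the normalized count plus 1 (horizontal axis) of each member gene (vertical axis) in the DKO animals of 12 weeks, intact endstage and castrated endstage, with a symbol per animal. The open triangles, castrated animal 2 of 99 weeks, lie among the 12-week squares, and the other 3 castrated animals lie above all 12-week animals for all 32 genes.

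Castrated endstage tumours were compared with intact endstage tumours of the same genotype. In DKO, 13 of 32 members were called lower in limma, against 6.93% of all genes. They were Kif11, Ccnb1, Ccnb2, Cdk1, Nusap1, Ndc80, Bub1, Cdca3, Kif20a, Cenpa, Cenpf, Top2a and Hmmr, with log2 changes from -2.05 to -1.08. Kif11 was the furthest, at -2.05 ± 0.45 (SE, limma, adjusted p = 0.000974), and Plk1 the least changed member at -0.53 ± 0.35 (limma, adjusted p = 0.368). The calls rested on animal 2: without it 1 of 32 was called lower, and that was Kif11, at -1.18. With only the compared groups in the fit, or with age as a covariate, limma called 0, while limma-voom called 21. The age term was a single linear slope, and castrated animal 2, at 99 weeks, was the oldest animal. Values with age as a covariate are therefore not separate from those of animal 2. Without intact animal 1, 2 or 3 the counts were 6, 7 and 4, and without castrated animal 3 or 4 they were 26 and 23. The shares of all genes called under these settings are not given here, so the counts cannot be read as particular to the members.

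The other 3 castrated DKO animals were above all 12-week animals in 32 genes, as were 24.8% of all genes, and below all 3 intact endstage animals in 18 genes, as were 17% of all genes. Leaving animal 2 out was chosen after its values were seen. Over all 4 castrated animals, also 18 genes were below every intact animal, as were 12.0% of all genes. The mean of the 3 animals differed from the intact mean by -1.18 for Kif11, -0.81 for Ccnb1 and -0.70 for Cdk1. It differed by -0.21 for Mki67 and 0.07 for Plk1, so the shortfall of these 3 animals was uneven across the members. In the full comparison the regulators Foxm1, Mybl2 and E2f1 were at -0.11 ± 0.34, -0.47 ± 0.45 and -0.31 ± 0.39 (SE) and were not called.

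In DKO_EE 0 of 32 members were called between castrated and intact endstage in limma, against 16.5% of all genes, 2 had an unadjusted p under 0.05 and limma-voom called 1. The changes ran from -0.78 for Kif11 to 0.40 for Plk1. With only the compared groups in the fit 4 members were called, Plk1 higher and Ndc80, Kif11 and Kif2c lower. With age as a covariate the mean member difference turned from -0.185 to 0.120. In DKO_EP 0 were called, against 9.87% of all genes, with 0 at an unadjusted p under 0.05 and 0 by limma-voom, and changes of -0.53 for Kif11 to 0.50. Kif11 alone was called with only the compared groups in the fit, and with age as a covariate the mean member difference turned from 0.0273 to -0.237. For limma-voom and for the fits with only the compared groups, the shares of all genes called are not given here. These calls in DKO_EE and DKO_EP therefore cannot be read as particular to the members. Kif11 was the lowest member in all 3 genotypes, which use separate animals. The labels do not give whether castrated and intact libraries were prepared or sequenced together, and this holds for all 3 genotypes alike. In DKO_EE it read 10.83, 10.11, 10.14, 10.47 and 10.31 after castration, and in intact animals 10.63 at the lowest, 11.21 at the median and 11.53 at the highest. The groups overlapped, since castrated animal 1 lay above intact animal 4. In DKO_EP Kif11 read 10.39, 10.48, 10.37, 10.63 and 10.48 after castration and 10.82, 11.08 and 11.09 without it, with no overlap, as for 10.4% of all genes. Lars2 took 14.22% to 21.55% of reads in the intact DKO_EP libraries and at most 0.004824% in the castrated ones. Its part was not tested.

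The difference of the castration effect from that in DKO was positive for all 32 genes in DKO_EE (0.39 to 1.57) and DKO_EP (0.66 to 1.57). In limma 0 were called in each, against 0.0119% and 0.0238% of all genes. An unadjusted p under 0.05 was reached by 11 and 18 members, and limma-voom called 0. Without castrated DKO animal 2 the mean member difference was 0.248 in place of 0.939 in DKO_EE and 0.460 in place of 1.15 in DKO_EP. With age as a covariate it was 0.396 and 0.0391. Among castrated tumours alone, DKO_EE exceeded DKO by 0.62 to 1.31 and DKO_EP exceeded DKO by 0.70 to 1.41, with 0 of 32 called in each by limma and by limma-voom, against 7.72% and 0.0302% of all genes. At an unadjusted p under 0.05 the counts were 12 and 16. The matching counts over all genes, for these and for the 11 and 18 above, are not given here. Whether the members exceeded all genes at that p is therefore not shown. Without castrated DKO animal 2 the mean member differences were 0.259 and 0.301, in place of 0.950 and 0.992, and with age as a covariate they were 0.175 and -0.0516. With all 11 groups in the fit 11 members were called for DKO_EE minus DKO, and without castrated DKO animal 3 the count was 2. The shares of all genes called in these fits are not given here. DKO_EE minus DKO_EP ran from -0.39 to 0.23, with 0 called against 1.7% of all genes, 0 at an unadjusted p under 0.05 and 0 by limma-voom, and with age as a covariate the mean turned from -0.0424 to 0.227.

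Of the wider list of mitosis genes, Hjurp and Nek2 differed between castrated and intact tumours in all 3 genotypes. Hjurp, the chaperone that loads Cenpa, was higher after castration by 2.48 ± 0.21 (SE) in DKO, 2.97 ± 0.16 in DKO_EE and 2.67 ± 0.20 in DKO_EP. Its lowest log2 value in a castrated group was 10.74 and its highest in an intact endstage group 9.24. Nek2, a centrosome kinase, was lower by 2.82, 1.67 and 1.64. Cenpa itself differed by -1.37, 0.20 and 0.01 in the same order and was called in DKO. Whether castrated and intact libraries were prepared or sequenced together is not given in the labels, so such a difference and castration cannot be told apart.

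CPI1688-treated castrated TKO mice were compared with vehicle-treated ones. The score was 0.31 ± 0.59 (SD, n = 4) with vehicle and 0.43 ± 0.24 (n = 4) with CPI1688. The differences ran from -0.09 to 0.39 with a median of 0.09, and 0 of 32 were called in limma (adjusted p = 0.9999), against 0% of all genes, with 0 at an unadjusted p under 0.05 and 0 by limma-voom. Mki67 read 12.40, 14.36, 13.47 and 14.06 with vehicle and 13.81, 13.80, 13.40 and 13.49 with CPI1688, and Cdk1 9.09, 10.41, 9.45 and 10.20 against 10.15, 10.12, 9.81 and 9.53. The treated animals lay inside the vehicle range for both genes. Vehicle animal 1 was the lowest of its group in 25 genes, with fibroblast markers at 4.62% of normalized counts against 0.190% to 0.682% in the other vehicle animals and neuroendocrine markers at 0.0286% against 0.444% to 0.543%. CPI1688 animal 4 was the lowest of its group in 24 genes, with fibroblast markers at 3.65%. Without vehicle animal 1 the mean member difference turned from 0.121 to -0.0875, without CPI1688 animal 4 it was 0.228, and with age as a covariate it was 0.502. Without vehicle animal 2, 3 or 4 it was 0.324, 0.000374 and 0.246, and without CPI1688 animal 1 or 2 it was 0.0731 and 0.0524. Vehicle animal 1 was the oldest of its group at 19 weeks with the lowest score, -0.31. Vehicle animal 2 was the youngest at 15 weeks with the highest score, 0.92. The value with age is therefore not separate from those animals.

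**Figure D5:**
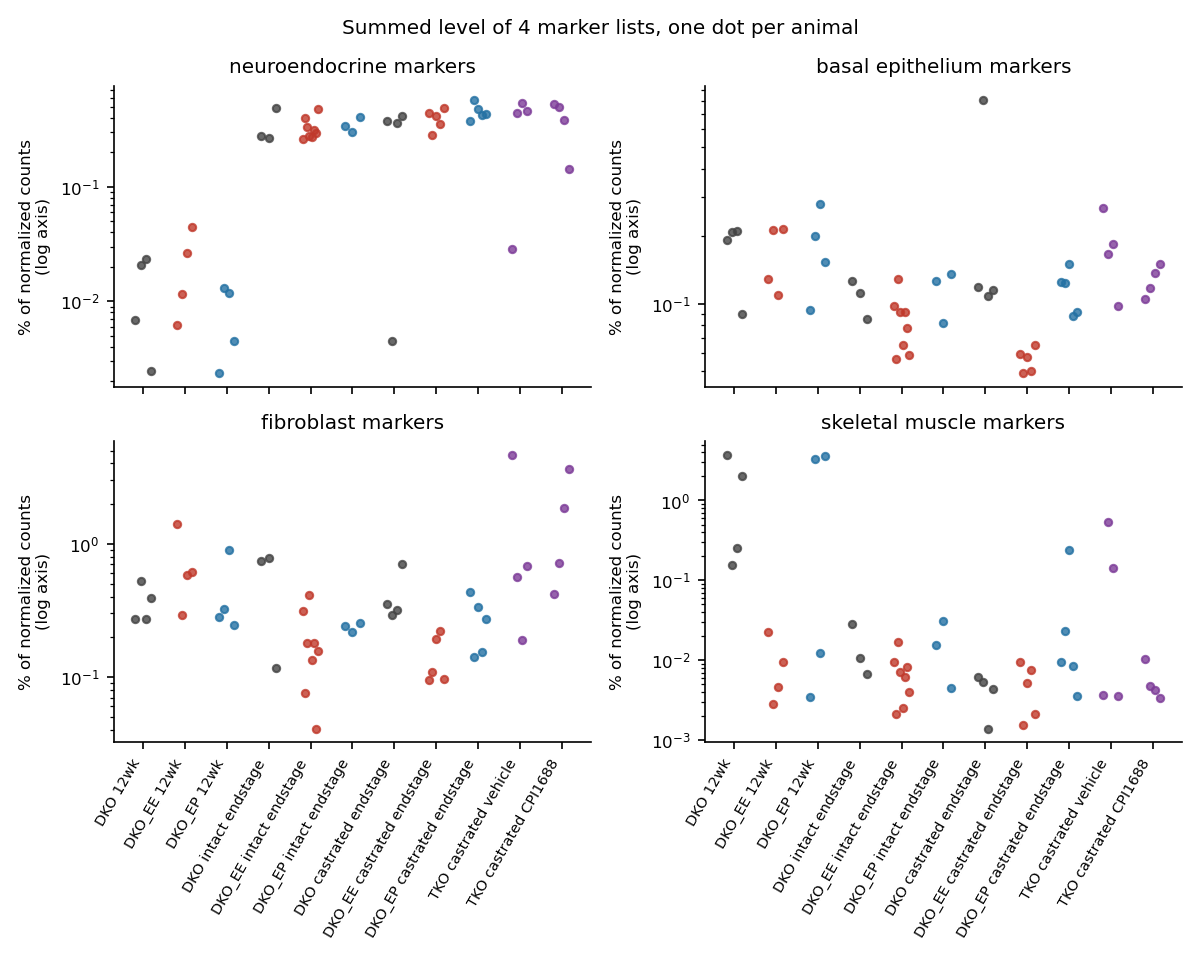
Summed share of normalized counts (vertical log axes, percent) of neuroendocrine, basal epithelium, fibroblast and skeletal muscle markers in each animal of the 11 groups (horizontal axes). Castrated DKO animal 2 is low for neuroendocrine markers at 0.00452% and high for basal markers at 0.813%, and vehicle animal 1 is high for fibroblast markers at 4.62%.

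Castrated TKO vehicle tumours minus castrated DKO tumours gave differences of 0.09 to 1.05, with 0 of 32 called in limma, against 0.566% of all genes, with 6 at an unadjusted p under 0.05 and 0 by limma-voom. The count of all genes at that unadjusted p is not given here. The TKO mice were 15 to 19 weeks old and the DKO mice 39 to 99 weeks, so model and age cannot be told apart, and with age as a covariate the mean member difference turned from 0.554 to -0.955. Without castrated DKO animal 2 it was -0.138. The ages of the models did not overlap, so the value with age rests on a single linear slope fitted over all groups. Castrated DKO animal 2, at 99 weeks and a score of -2.31, enters that slope, so these checks are not separate. Between pieces of a tumour from the same animal, labelled AP and DP without expansion, the 32 genes differed by -0.24 to 0.14, with 0 called in limma against 0% of all genes, 0 at an unadjusted p under 0.05 and 0 by limma-voom.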

How the data were processed

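Total RNA from prostate tumour tissue was extracted with the miRNeasy kit and ribosomal RNA was depleted (RiboErase) before RNA HyperPrep library preparation, per the labels' protocols. The submitters' processing notes name FastQC, STAR, RSEM, limma and DESeq2 and the builds GRCm38 and mm10, without roles or versions. The deposited table holds the authors' log2 values of normalized counts plus 1. The steps between low values gave back whole reads: 100% of the values under 2000 reads lay within 0.05 of a whole number. Those reads gave the depths and a limma-voom alternative. 2 columns matched no sample and were not used.

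The 6 animals with 2 libraries were averaged, so that n counts animals. Animal numbers follow accession order. Log2 values were fitted with limma 3.58.1 (lmFit, contrasts.fit and eBayes with trend) in R 4.3.3, with Benjamini-Hochberg adjustment over all genes with any spread and a call at an adjusted p under 0.05. Progression, castrated against intact and TKO against DKO were fitted over all 11 groups, and the other comparisons within their setting. A count over all genes at an unadjusted p is given only for DKO_EE minus DKO at 12 weeks. The members and lists were chosen with earlier results of these data known. All 32 members are named. From other lists, up to 4 genes with the smallest adjusted p per comparison and 7 set regulators could be named. Knl1, Sgo1, Sgo2a, Pimreg, Wapl and Trac are not analysed here. The fits were tested on simulated data. Alternatives were a filter on the lowest 25% of genes, an offset of 8, quantile normalization, limma-voom, other groups in the fit, 1 library per animal, libraries under 10% Lars2, age as a covariate, 12-week animals under 1% Ttn, and leaving out animals. Other steps used Python 3.11.15, pandas 2.3.3, numpy 2.4.6 and matplotlib 3.10.9.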

Additional observations from a re-analysis of the deposited data

Results flagged for a closer look

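Values were looked at again where the highest or lowest animal of a group stood apart from the rest by a large part of the group's range. Intact endstage DKO and DKO_EP, with 3 animals each, were not looked at in this way. For a single gene, chance picks about 1 in 20 groups this way. The members of an animal are not separate draws, so that rate is no measure for all combinations of a member and a group. Of 288 such combinations, 40 (13.9%) were picked, 22 of them in castrated DKO. There the lowest animal was always animal 2, with a score of -2.31 and log2 values of 7.32 for Cdk1, 6.29 for Ccnb1, 7.58 for Ccna2, 6.90 for Ccnf, 5.54 for Aurka, 6.63 for Plk1, 5.40 for Ttk, 7.12 for Bub1b, 6.15 for Cdca8, 5.15 for Cenpa, 8.05 for Cenpe, 5.88 for Ndc80, 6.58 for Kif11, 6.65 for Kif20a, 7.89 for Kif23, 6.04 for Kif2c, 7.52 for Tpx2, 7.77 for Prc1, 6.65 for Hmmr, 6.48 for Ube2c, 10.80 for Mki67 and 9.59 for Top2a. In intact endstage DKO_EE 8 members had a low animal apart, with log2 values of 9.69 for Ccnb1, 9.48 for Ccna2, 8.83 for Ccnf, 7.86 for Aurka, 7.56 for Ttk, 9.24 for Bub1b, 9.11 for Kif20a and 9.43 for Hmmr. In 12-week DKO_EE the highest animal stood apart at 10.03 for Cenpf and 11.90 for Mki67, and the lowest at 6.49 for Ccnf and 6.68 for Dlgap5. In 12-week DKO_EP the highest stood apart at 6.95 for Cdc20 and the lowest at 6.72 for Kif20a. The lowest CPI1688 animal stood apart at 8.02 for Aurkb, 10.36 for Cenpe and 7.94 for Cdc20, and the lowest castrated DKO_EE animal at 8.46 for Dlgap5.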

How the results depend on the processing

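Of 10784 values of a single member under an alternative, 491 changed sign, and none of these was called in either fit. All 32 members changed sign in TKO minus DKO with age as a covariate, and 26 did so without castrated DKO animal 2. Members changed sign in no alternative for progression within a genotype. With 12-week animals under 1% Ttn only (2 DKO, 4 DKO_EE and 2 DKO_EP animals), the mean member difference in progression from DKO was -0.996 in DKO_EE and -0.965 in DKO_EP, and DKO_EP minus DKO at 12 weeks was 0.805. The 2 DKO animals were animals 2 and 3. Leaving out 12-week DKO animal 3 alone, members changed sign in all 3 of these comparisons, 1, 7 and 15 in that order. With age as a covariate the mean member difference was -0.0516 for castrated DKO_EP minus DKO, 0.227 for castrated DKO_EE minus DKO_EP, 0.120 for castrated minus intact in DKO_EE, -0.237 for it in DKO_EP, 0.0391 for the difference of DKO_EP from DKO in that effect, and -0.955 for TKO minus DKO. The age term was a single linear slope, and these fits with age all held castrated DKO animal 2, the oldest animal at 99 weeks. Calls for castrated minus intact in DKO were 21 by limma-voom, 0 with only the compared groups, 0 with age, and 1 to 26 leaving out an animal. In DKO_EE they were 1 by limma-voom, 4 with only the compared groups and 1 with libraries under 10% Lars2, and in DKO_EP 1 with only the compared groups. Castrated DKO_EE minus DKO gave 11 calls with all 11 groups in the fit and 0 to 2 leaving out an animal. Intact DKO_EE minus DKO_EP gave 0 to 1 leaving out an animal, with the 1 coming without DKO_EE animal 4, chosen after seeing the data. The mean difference of DKO_EE from DKO in the castration effect was 0.248 to 1.20 leaving out an animal. The causes were not tested, and the shares of all genes called under these alternatives are not given here. Libraries under 10% Lars2 were too few for the 6 comparisons with intact DKO_EP and for AP minus DP, which were not run. No paired analysis was possible because the labels give no replicate numbers shared between groups. Only the AP and DP pieces share animals, and their fit holds the animal as a block.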

Other observations

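Hjurp and Nek2 were named by the rule for lists. Mean Hjurp log2 levels were 7.34 to 7.45 in the 12-week groups, 8.65 to 8.76 at intact endstage, 11.13 to 11.73 in the castrated DKO models and 11.43 and 11.44 in castrated TKO with vehicle and CPI1688.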
